A study of Rattus norvegicus with 32 samples.

Results

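The genes described here are 40 heat-shock proteins, chaperones and genes of the unfolded-protein response, chosen by name from a list of genes. They comprised 4 small heat-shock proteins, 2 heat-shock transcription factors, 8 cytosolic and mitochondrial chaperones, 7 cytosolic co-chaperones, 15 genes of the endoplasmic reticulum and 4 transcription factors of the unfolded-protein response. Of the 40, 39 had a row among the 22587 genes of the table, and Hspe1 is not analysed here. All 39 reached the mean of 10 normalized counts that a gene needed to be tested, in every comparison.

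Messenger RNA was sequenced from the brainstem and the hypothalamus of 13-week-old Wistar Kyoto rats, an inbred strain. Rats had a sham operation or an adrenalectomy (ADREX), the removal of the adrenal glands and with them of the main source of corticosterone. Exposure was to filtered air or to 0.8 ppm of ozone, an oxidant gas, for 4 hours, and tissue was taken right after it. Tissue, operation and exposure gave 8 groups of 4 libraries, named below by the numbers in their labels, with 6.436 to 12.391 M reads each. Levels are normalized counts per gene, given as mean ± SD (n = 4) or per library, and are not scaled by gene length, so they are compared between samples and never between genes. Changes are log2 fold changes ± SE, and a change is said to pass when limma's adjusted p over all genes tested is below 0.05. The p-values measure the spread between libraries, since the labels do not state that each library is a separate animal. Brainstem ADREX ozone 81 stood apart from the other brainstem libraries, and the brainstem calls and some of the brainstem changes are given with and without it below. Liver transcripts, transferrin not counted, made up 11.2 to 3313 RPM of the libraries and passed 2000 RPM in 4 of them (brainstem sham ozone 18 and hypothalamus sham air 2, sham ozone 18 and ADREX air 68).

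Chaperones bind unfolded proteins and help them to fold or to be degraded. In the cytosol, heat-shock factors such as Hsf1 are released when unfolded protein accumulates, and they then drive the genes of heat-shock proteins through heat-shock elements in the promoters. In the endoplasmic reticulum the unfolded-protein response does the corresponding work, with Atf6, Xbp1 and Atf4 as its transcription factors and Hspa5 (BiP) as its best known target. The small heat-shock protein Cryab (alpha-B-crystallin) is abundant in oligodendrocytes and astrocytes.

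The promoter windows in which these regulatory letters were sought show which members carry them. RefSeq promoter sequences of build GRCr8, from 250 bases before to 50 after each gene's start, were on hand for 32 of the 40 genes. No entry was found for Cryab, Hsf1, Hsp90aa1, Dnajb4, Pdia3, Pdia6, Atf6 and Manf. The endoplasmic reticulum stress element was searched on both strands as CCAAT and CCACG with any 9 bases between. It was present in the windows of 7 members and in 0.0657% of all 33469 windows. Matches from 6 of these windows are printed in the direction of the motif with 6 flanking bases, and capitals mark the fixed letters.
Hspa5: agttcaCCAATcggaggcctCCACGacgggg
Xbp1: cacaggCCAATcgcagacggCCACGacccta
Calr: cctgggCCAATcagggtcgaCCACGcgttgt
Creld2: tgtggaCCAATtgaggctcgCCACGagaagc
Dnajc3: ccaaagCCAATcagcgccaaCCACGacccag
Hsp90b1, upstream match: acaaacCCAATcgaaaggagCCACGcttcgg
Hsp90b1, downstream match: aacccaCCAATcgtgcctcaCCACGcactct

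A heat-shock element was searched on both strands as GAA, TTC and GAA with any 2 bases between each, and was found in 5 members, against 0.798% of all windows. They were Hsph1, Dnaja1, Hspa8, Hspd1 and Hspe1, and the last pair share the same matches, which overlap each other, on opposite strands. The matches are shown in the direction of the motif, with capitals for its fixed letters.
Hsph1: tgaggaGAActTTCcaGAAtctgcg
Dnaja1: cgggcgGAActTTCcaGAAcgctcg
Hspa8, upstream match: gagcgtGAAagTTCcaGAAcgctgc
Hspa8, downstream match: gtcttaGAAccTTCcaGAAgggttc
Hspd1, upstream match: gttctaGAAccTTCcgGAAggcccc
Hspd1, downstream match: cttccgGAAggTTCtaGAAccgagc

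Bag3, described below, had no match to either element as spelled here. Bag3 does hold GAAGTTTC, which has the letters of a heat-shock element without its last GAA. Such a part was not sought in the windows of the other members, and the share of all windows with it was not counted. Its window (chr1:192533210-192533509, GRCr8, + strand) is printed because Bag3 is 1 of the 2 members that passed for ozone. Capitals mark a match, read on the other strand, to TGACGTGG, a core bound by Atf6 and Xbp1 that holds the CCACG letters and occurred in 0.595% of all windows and, among members, in Bag3 and Hyou1.
Bag3: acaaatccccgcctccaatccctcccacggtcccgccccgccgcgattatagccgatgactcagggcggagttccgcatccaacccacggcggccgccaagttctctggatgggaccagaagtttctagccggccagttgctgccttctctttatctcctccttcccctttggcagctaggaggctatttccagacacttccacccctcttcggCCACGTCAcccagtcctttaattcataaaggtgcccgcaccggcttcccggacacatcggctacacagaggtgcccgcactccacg
A glucocorticoid receptor element, searched as GNACA and TGTNC with any 3 bases between, was in 0.439% of all windows and in 0 of the 32 members' windows. At that rate 32 windows are too few for a match to be likely, and Cryab had no window, so this count says nothing about the members. The matches printed above are descriptions of letters, and their use by any factor was not measured.

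Ozone in sham rats raised 2 members in the hypothalamus, Cryab and Bag3, and left every endoplasmic reticulum member short of limma's threshold. Limma called 2 of 39 members there, beside 1.59% of 14483 genes in either direction and 0.946% higher. In the brainstem limma called 0 of 39 members, beside 0.979% of 14408 genes, with 2 members at an unadjusted p under 0.05. Of all 14408 genes, 519 were higher and 591 lower at such a p. Without brainstem ADREX ozone 81, described below, there were 7 such members. The number over all genes in that fit is not given here, so the 7 have no background. For the brainstem edgeR also called 0, and DESeq2 called 1, Cryab. The share of all genes that DESeq2 called is not given here. Over all genes the alternatives called 73 to 272, where limma as used above called 141. As a check of the exposure and the operation, Fkbp5, a glucocorticoid-induced co-chaperone of the glucocorticoid receptor, stood at 264 ± 33.9 in sham air and 1308 ± 113 in sham ozone brainstem. After ADREX it stood at 225 ± 32.9 in air and 208 ± 30.3 in ozone.

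Cryab, which keeps unfolding proteins from aggregating, had the largest change among the members in the hypothalamus of sham rats. The sham air libraries held 505, 406, 527 and 441 normalized counts. The sham ozone libraries held 1032, 1068, 971 and 1017. Every ozone library was above every air library, as for 4.79% of all genes. The change was 1.13 ± 0.11, or 2.18-fold (limma adjusted p = 1.73e-05). That call held in all 17 alternatives of the analysis, with adjusted p from 2.27e-20 to 0.000432 by the tool of each.

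In the brainstem of sham rats Cryab stood higher from the start. Its counts were 1293, 985, 1431 and 1180 in sham air. They were 1669, 2481, 2206 and 2237 in sham ozone. Again the groups did not overlap, as for 3.49% of all genes in that direction, with sham ozone 17 the lowest of its group. The change was 0.81 ± 0.20, from 1222 ± 189 to 2148 ± 343, and it missed the threshold (limma adjusted p = 0.0656). It passed with limma when brainstem ADREX ozone 81, which is in neither group, was left out (adjusted p = 0.00269). It also passed with DESeq2 (adjusted p = 0.00409) and with limma on the compared groups alone (adjusted p = 0.0196), and over all 18 alternatives the adjusted p ranged from 0.00269 to 0.21. The difference between the tissues in the Cryab response to ozone was 0.32 ± 0.23 (limma adjusted p = 0.983), with a 95% interval from -0.16 to 0.79.

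**Figure D1:**
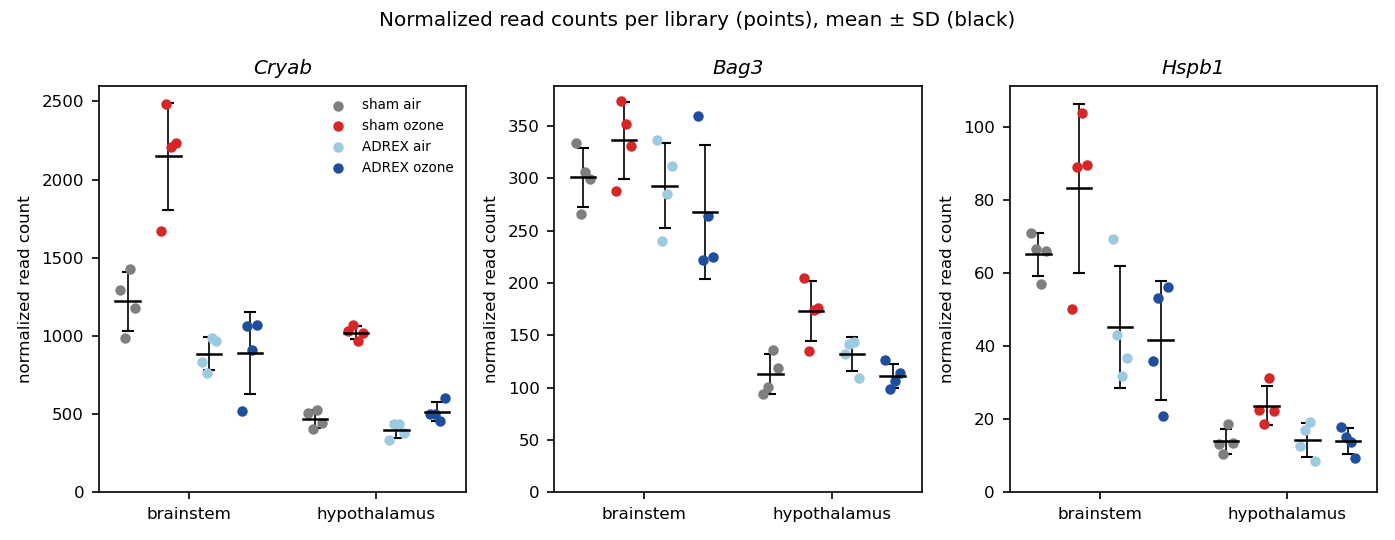
Normalized read counts of Cryab, Bag3 and Hspb1 (vertical axes, linear from 0) in each of the 32 libraries, by tissue and group, with black bars for the group mean ± SD (n = 4). Cryab in sham ozone lies above sham air in both tissues, at 1669 to 2481 in the brainstem and 971 to 1068 in the hypothalamus, while the ADREX ozone libraries lie at 519 to 1072 and 458 to 605.

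Bag3, a co-chaperone that links Hsp70 to small heat-shock proteins and to autophagy, was the other member that rose in the hypothalamus of sham rats. It was at 93.9, 101, 136 and 119 in sham air. In sham ozone it was at 205, 135, 174 and 176. The groups overlapped by a single pair, since sham ozone 18 lay just below sham air 3. The change was 0.61 ± 0.15, or 1.53-fold (limma adjusted p = 0.046), and it rested on single libraries. Limma gave Bag3 an adjusted p of 0.155, 0.123 and 0.089 without sham air 1, 2 and 4, and of 0.157, 0.0943 and 0.117 without sham ozone 17, 19 and 20. When the 4 libraries above 2000 RPM of liver transcripts were left out, an alternative chosen after seeing the data, the hypothalamus changes were 0.67 for Bag3 (limma adjusted p = 0.0367) and 1.04 for Cryab (limma adjusted p = 0.000432). In the brainstem Bag3 was at 301 ± 28.1 in sham air and 336 ± 36.5 in sham ozone, a change of 0.16 ± 0.15 (limma adjusted p = 0.998).

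The other small heat-shock proteins gave no call for ozone. Hspb1 (Hsp27), which binds unfolded protein and actin, was low throughout. In the hypothalamus it was at 13.2, 10.5, 18.8 and 13.4 in sham air. In sham ozone it was at 22.7, 18.6, 31.2 and 22.3. Sham ozone 18 lay just under the highest air library, so the groups overlapped. The change of 0.73 ± 0.29 missed the threshold (limma adjusted p = 0.29), on 8 to 34 reads per hypothalamus library. In the brainstem it was at 65.2 ± 5.88 in sham air and 83.3 ± 23.1 in sham ozone (0.30 ± 0.30, limma adjusted p = 0.998). Hspb6 (Hsp20) had group means of 256 to 447 and Hspb8, a partner of Bag3, of 200.1 to 294 over the 8 groups. Hspb2, a small heat-shock gene that lies head to head with Cryab in mammals and is not among the 40, held 0 to 3.57 in all 32 libraries and was too low to test.

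No heat-shock factor and no chaperone of cytosol or mitochondria passed limma's threshold for ozone. Hsf1, the main inducer of heat-shock genes, had group means of 169 to 224, and its relative Hsf2 of 278 to 366. The Hsp90 isoforms Hsp90aa1 and Hsp90ab1, which hold kinases and steroid receptors in an active form, had means of 22482 to 29689 and 11085 to 12726. Nucleotide exchange factors of Hsp70 followed, with Hspa4 at 3574 to 4189 and Hsph1 at 4592 to 6876. The mitochondrial Hspa9 (mortalin) and Hspd1 (Hsp60) were at 1535 to 1785 and 1637 to 1958. The sizes were small, since leaving Hspa8 aside no member of this class moved by more than 0.2 in sham rats under ozone. Hspa8, the constitutive Hsp70, was listed at only 0 to 49.7 counts, and its level is uncertain because it has near-identical copies and how shared reads were counted is unknown here. It went from 31.5 ± 17.8 in sham air to 8.52 ± 6.35 in sham ozone brainstem, a change of -1.77 ± 0.89 that did not pass (limma adjusted p = 0.712).

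Among the cytosolic co-chaperones, Bag3 was alone in passing limma's threshold for ozone. The Hsp40 proteins, which stimulate the ATPase of Hsp70, were represented by Dnaja1, Dnajb1, Dnajb4 and Dnajb5. Dnajb1 was at 580.4 ± 32.9 in sham air and 504 ± 23.9 in sham ozone hypothalamus, and at 586 ± 43.9 and 499 ± 40.5 in the brainstem. It did not pass in either tissue. Its hypothalamus ranges, 548 to 623 in air and 477 to 535 in ozone, were separate, as for 4.83% of all genes in the lower direction. Group means lay at 2953 to 4442 for Dnaja1, at 970.2 to 1328 for Dnajb4 and at 153 to 377 for Dnajb5. Stip1 (Hop), the adaptor between Hsp70 and Hsp90, had means of 1099 to 1346. Ahsa1 (Aha1), the activator of the Hsp90 ATPase, had means of 502 to 665.

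**Figure D2:**
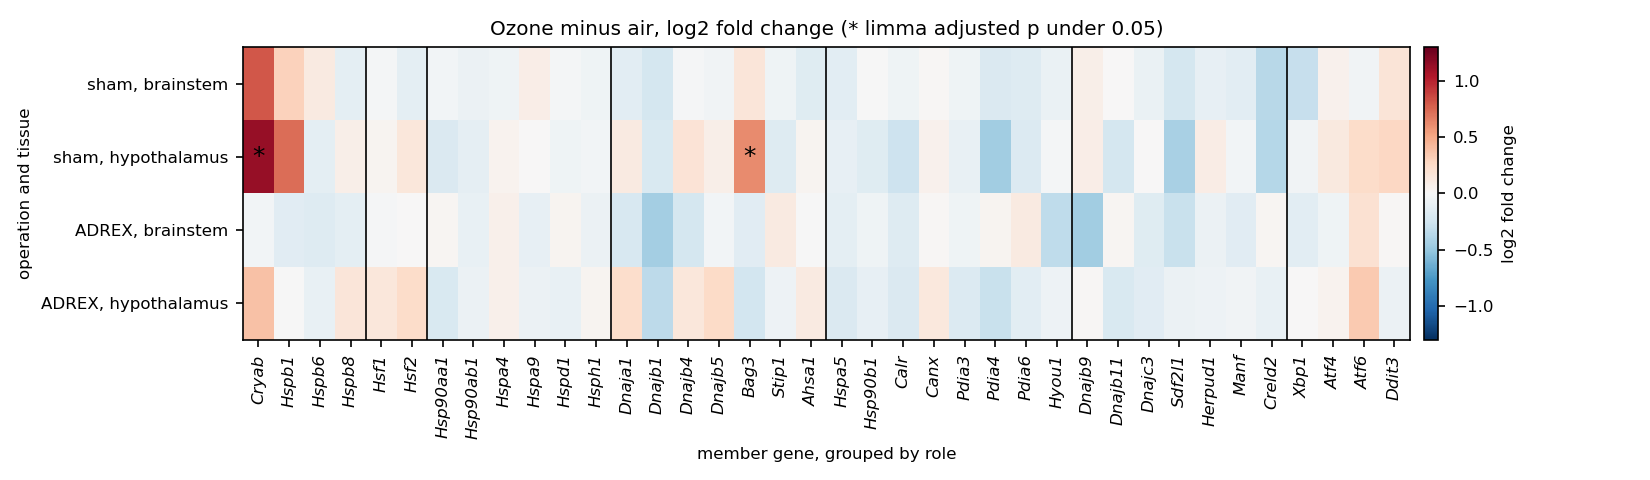
Log2 fold change of ozone against air (colour, scale at the right) for 38 members in columns, grouped by role, in the 4 combinations of operation and tissue in rows; asterisks mark limma adjusted p under 0.05, and Hspa8 is left out. The asterisks are Cryab and Bag3 in the hypothalamus of sham rats, and the endoplasmic reticulum members right of Ahsa1 are mostly pale blue.

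The endoplasmic reticulum members had more negative than positive changes under ozone, and limma called none of them. In sham rats 12 of the 15 had a negative change in each tissue, with medians of -0.089 (brainstem) and -0.113 (hypothalamus). The medians over all genes tested were -0.003 and -0.005. In ADREX rats 10 brainstem and 13 hypothalamus changes of 15 were negative (medians -0.079 and -0.105, beside -0.006 and -0.002 over all genes). Without brainstem ADREX ozone 81 the ADREX brainstem had 14 of 15 negative, with a median of -0.144 beside -0.001 over all genes. Sham ozone 18 in the hypothalamus was the lowest of its group for members such as Calr (1644, others 2063 to 2455) and Pdia3 (1758). It was the highest for Dnajb9 (841), Dnajc3 (163) and Herpud1 (670.3). ADREX air 66 in the hypothalamus was the highest of its group for members such as Hspa5 (5246, others 3543 to 4729). It was the lowest for Canx (5476) and Dnajc3 (147). The part of these libraries in the hypothalamus counts was not tested. A further list of unfolded-protein-response and folding genes, described below, had 43 genes tested. In sham rats 24 of these were positive and 19 negative in the brainstem (median 0.034), and 22 and 21 in the hypothalamus (median 0.002). In ADREX rats 17 were positive and 26 negative in each tissue (medians -0.033 and -0.034). All of these are counts of signs, and genes are not independent replicates.

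Pdia4, a disulfide isomerase of the endoplasmic reticulum, was the closest to a call. Its hypothalamus counts were 290, 357, 366 and 284 in sham air. They were 231, 208, 266 and 237 in sham ozone. No sham ozone library reached the sham air range, a pattern seen in the lower direction for 4.83% of all genes. The change was -0.45 ± 0.11 (limma adjusted p = 0.0584). Pdia4 passed with DESeq2 (adjusted p = 0.0125) and with limma on genes with a mean of 50 or more (adjusted p = 0.0496), and over 17 alternatives its adjusted p ranged from 0.0125 to 0.316. In the brainstem it changed by -0.19 ± 0.11 (limma adjusted p = 0.833).

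Creld2, a secreted chaperone induced by endoplasmic reticulum stress, was at 77, 70.9, 90.3 and 63.3 in sham air hypothalamus. It was at 62.4, 60.9, 54.2 and 52.8 in sham ozone. The groups did not overlap, and the change of -0.37 ± 0.15 did not pass (limma adjusted p = 0.291). In the brainstem Creld2 had -0.36 ± 0.19 (limma adjusted p = 0.768). The co-chaperone Dnajb11 had -0.23 ± 0.11 in the hypothalamus (limma adjusted p = 0.39), and the lectin chaperone Calr (calreticulin) had -0.27 ± 0.13 (limma adjusted p = 0.408). Hspa5 (BiP), the central chaperone of the compartment, stood at 3936 ± 246 in sham air and 3652 ± 396 in sham ozone hypothalamus (-0.11 ± 0.11, limma adjusted p = 0.706), and the groups overlapped. In the brainstem it stood at 3783 ± 588 and 3414 ± 344.

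**Figure D3:**
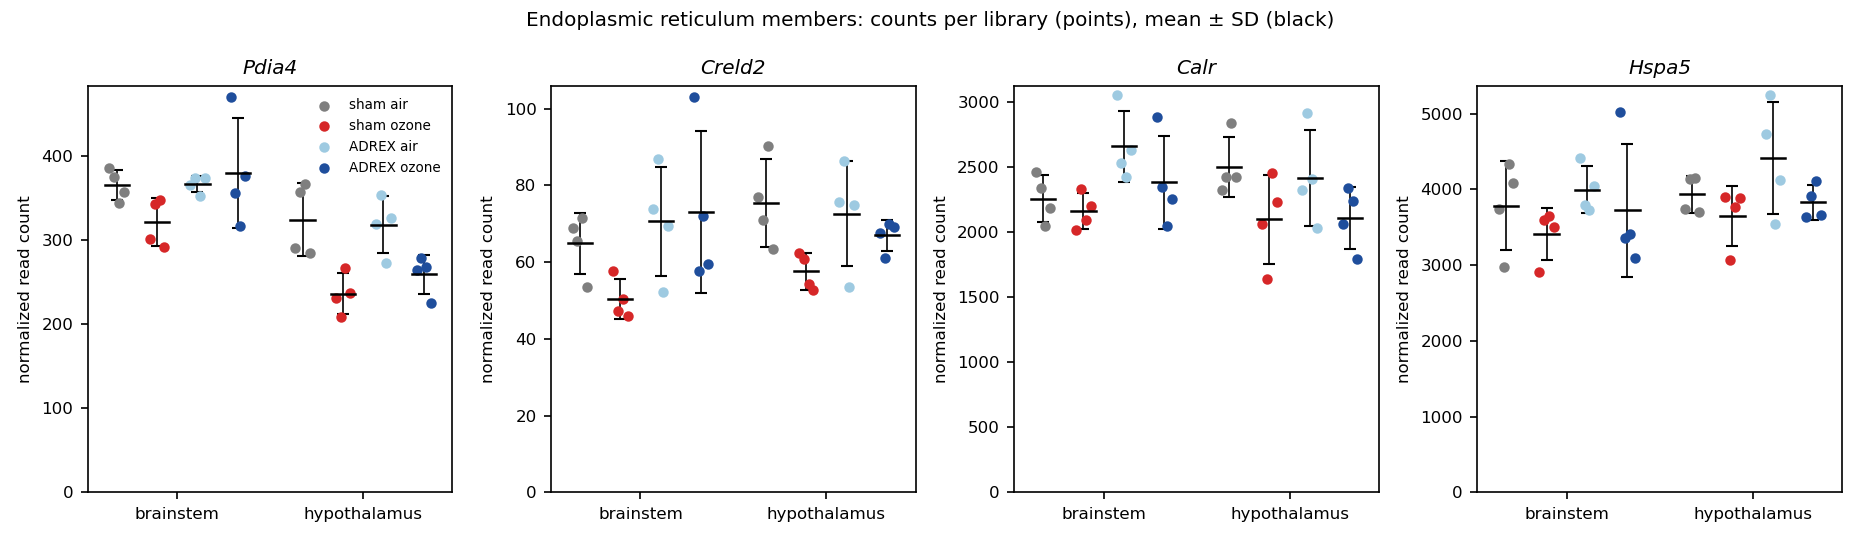
Normalized read counts of Pdia4, Creld2, Calr and Hspa5 (vertical axes, linear from 0) in each library by tissue and group, with black bars for the group mean ± SD (n = 4). In the hypothalamus the sham ozone libraries of Pdia4 (208 to 266) and Creld2 (52.8 to 62.4) lie below the sham air libraries, while those of Hspa5 overlap, and brainstem ADREX ozone 81 is the highest point of its group in all 4 panels.

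The remaining endoplasmic reticulum members are given by their group means over the 8 groups. Hsp90b1 (Grp94) was at 2335 to 2643, and the membrane lectin chaperone Canx (calnexin) at 5888 to 6740.1. The disulfide isomerases Pdia3 and Pdia6 were at 1913 to 2271 and 1191 to 1454. Hyou1 (Grp170), an exchange factor of Hspa5, was at 974 to 1529. Dnajb9 (ERdj4) was at 671 to 865 and Dnajc3 (p58IPK), which restrains translational control by PERK, at 141 to 192. Sdf2l1, a partner of Dnajb11, was at 50.9 to 111. Herpud1, a factor of degradation from the endoplasmic reticulum, was at 520 to 573, and the secreted neurotrophic factor Manf at 254 to 326.

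The transcription factors of the unfolded-protein response did not pass for ozone in either tissue. Xbp1, whose spliced form drives folding genes, was at 401 ± 80.4 in sham air and 323 ± 34 in sham ozone brainstem (-0.30 ± 0.13, limma adjusted p = 0.582). Splice forms were not resolved in the table. Atf4, the translationally controlled arm, had means of 1418 to 1564, and Ddit3 (CHOP), its pro-apoptotic target, of 99.9 to 123. Atf6, a membrane-bound factor released by cleavage, had means of 412 to 649.8. In the hypothalamus its ozone libraries all lay above its air libraries, without passing. The ranges were 401 to 424 in sham air and 442 to 594 in sham ozone, as for 4.79% of all genes in that direction. In ADREX rats they were 317 to 497 in air and 504 to 646 in ozone, as for 1.8% of all genes. None of the 7 members with an endoplasmic reticulum stress element, nor any of the 4 tested members with a heat-shock element, was called for ozone.

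Cell markers moved beside these changes. Of 8 endothelial markers measured, 3 fell in sham rats under ozone in each tissue, Kdr and Slco1c1 in both with Tie1 in the brainstem and Emcn in the hypothalamus. Their summed counts had ranges of 3282 to 3734 in air and 2352 to 2956 in ozone in the brainstem. In the hypothalamus the ranges were 2629 to 2895 and 1819 to 1939. Oligodendrocyte markers summed to 129372 to 145219 in sham air and 140329 to 159258 in sham ozone hypothalamus, with 1 of 10 called, Mal, which rose by 0.28 ± 0.06 (limma adjusted p = 0.0224). Astrocyte markers summed to 28988 to 30723 and 29808 to 33242, and none of the 9 passed. No endothelial, oligodendrocyte or astrocyte marker was at 0 throughout a group, and their part in the Cryab and Bag3 results was not tested. In bulk tissue, fewer cells of a type and less RNA per cell cannot be told apart.

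After adrenalectomy ozone moved no member past the threshold. Limma called 0 of 39 in either tissue, as it called 0.0% of all genes in both, with 2 brainstem and 4 hypothalamus members at an unadjusted p under 0.05. At such a p, 377 brainstem genes of 14408 were higher and 474 lower. In the hypothalamus 611 of 14483 were higher and 552 lower. Without brainstem ADREX ozone 81 the brainstem had 10 such members and still 0 calls. The number over all genes in that fit is not given here, so the 10 have no background. EdgeR and DESeq2 called 0 members in either tissue. Cryab in the ADREX brainstem was at 836, 762, 986 and 966 in air. In ozone it was at 519, 1066, 909 and 1072. The groups overlapped, and the change was -0.04 ± 0.20 (limma adjusted p = 0.975).

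In the ADREX hypothalamus Cryab was at 338, 437, 439 and 378 in air. Under ozone it was at 502, 504, 458 and 605. Every ozone library was above every air library, as for 1.8% of all genes in that direction, and the change of 0.38 ± 0.11 did not pass (limma adjusted p = 0.586). Bag3 in the same rats went the other way, from 132 ± 16.3 to 111 ± 11.5 (-0.24 ± 0.15, limma adjusted p = 0.607).

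The next members by p in ADREX rats were of other classes. Dnajb1 had -0.44 ± 0.16 in the brainstem (limma adjusted p = 0.801) and -0.34 ± 0.12 in the hypothalamus (limma adjusted p = 0.586). Hyou1 had -0.33 ± 0.13, Dnajb9 -0.45 ± 0.27, Sdf2l1 -0.29 ± 0.18 and Atf6 0.20 ± 0.12 in the brainstem. In the hypothalamus Atf6 had 0.34 ± 0.13, Pdia4 -0.29 ± 0.11 and Canx 0.14 ± 0.07. None of these passed (limma adjusted p = 0.586 to 0.808).

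The operation alone, read in rats that breathed air, changed no member past the threshold. Limma called 0 of 39 in each tissue, beside 0.0% of all genes in the brainstem and 0.0138% in the hypothalamus. At an unadjusted p under 0.05, 264 brainstem genes of 14408 were higher and 281 lower. In the hypothalamus 423 of 14483 were higher and 384 lower. Among the members 3 in the brainstem and 2 in the hypothalamus had such a p, and edgeR and DESeq2 called 0. Atf6 had the smallest p in the brainstem, at 568, 631, 746 and 655 in sham and 458, 515, 508 and 515 in ADREX. These ranges were separate, as for 1.64% of all genes in the lower direction, and the change was -0.37 ± 0.12 (limma adjusted p = 1.0). Cryab had -0.46 ± 0.20, Calr 0.24 ± 0.11, Hspa4 -0.17 ± 0.08 and Hspb1 -0.58 ± 0.30 there. In the hypothalamus the smallest p belonged to Cryab (-0.24 ± 0.11), Dnajc3 (0.34 ± 0.16), Manf (0.27 ± 0.13), Hsp90aa1 (-0.17 ± 0.11) and Ddit3 (0.24 ± 0.15), with limma adjusted p = 0.881 to 0.923.

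Under ozone, ADREX rats had less Cryab than sham rats in both tissues and less Bag3 in the hypothalamus. Limma called 1 of 39 members in the brainstem, beside 2.44% of all genes (1.25% lower), and 2 of 39 in the hypothalamus, beside 2.24% (1.2% lower). All of these calls were lower in ADREX. This comparison shares its sham ozone libraries with the comparison of ozone and air in sham rats, so the values stand side by side and neither supports the other.

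Cryab in ozone was 2148 ± 343 in sham and 891 ± 259.5 in ADREX brainstem. The highest ADREX library, at 1072, was below the lowest sham library, at 1669, and 3.51% of all genes were separated in that direction. The change was -1.31 ± 0.20 (limma adjusted p = 0.000999). In the hypothalamus Cryab was 1022 ± 40.1 in sham and 517 ± 62.3 in ADREX, a change of -0.99 ± 0.11 (limma adjusted p = 5.56e-05). Cryab passed in all 17 alternatives in each tissue.

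Bag3 in the hypothalamus was at 205, 135, 174 and 176 in sham ozone. It was at 126, 98.9, 106 and 114 in ADREX ozone. All ADREX libraries were lower, as for 3.38% of all genes, and the change was -0.62 ± 0.15 (limma adjusted p = 0.0331). Bag3 lost the call without ADREX ozone 82 (limma adjusted p = 0.0955), 83 (0.096) or 84 (0.0563) and without sham ozone 17 (0.123), 19 (0.0985) or 20 (0.105). In the brainstem Bag3 had -0.35 ± 0.15 (limma adjusted p = 0.378).

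Hspb1 under ozone was at 50.2, 89.2, 104 and 89.7 in sham brainstem. It was at 36.1, 53.1, 21 and 56.3 in ADREX brainstem. The groups overlapped through sham ozone 17, and the change of -1.03 ± 0.30 did not pass (limma adjusted p = 0.1). It passed with limma without that library (adjusted p = 0.0486) and with DESeq2 (adjusted p = 0.0265). In the hypothalamus Hspb1 had -0.73 ± 0.29 without overlap (limma adjusted p = 0.308). Members with the next smallest p in the brainstem were Hspb6 (-0.31 ± 0.11), Creld2 (0.50 ± 0.19) and Pdia4 (0.23 ± 0.11). In the hypothalamus they were Manf (0.26 ± 0.13), Hsp90aa1 (-0.18 ± 0.11), Creld2 (0.22 ± 0.15) and Atf6 (0.17 ± 0.13), and none passed (limma adjusted p = 0.245 to 0.671).

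Endothelial markers moved in the opposite direction here. The sham ozone libraries are the same as in the comparison of ozone and air, so this is not a second observation. In ADREX against sham rats under ozone 5 of 8 were higher in each tissue, with summed counts of 3589 to 3804 in ADREX and 2352 to 2956 in sham brainstem. In the hypothalamus these sums were 2458 to 2753 and 1819 to 1939. In the brainstem 2 of 10 oligodendrocyte markers, Cnp and Opalin, and 1 of 9 astrocyte markers, Gfap, were higher in ADREX. Oligodendrocyte markers in the hypothalamus had 4 of 10 higher and 1 lower, with sums of 153705 to 207331 in ADREX and 140329 to 159258 in sham. Astrocyte markers there had 1 of 9 higher, Aqp4, and 1 lower, Aldoc. The median of the 10 oligodendrocyte markers was 0.26 in the hypothalamus, where Cryab was lower, and the part of cell makeup in the results was not tested.

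The test of the difference itself, whether ozone acted differently in ADREX and sham rats, gave no limma call among the members. In the hypothalamus limma called 0 of 39 (2 at an unadjusted p under 0.05), beside 0.138% of all genes, edgeR called 0 and DESeq2 called 2. At such a limma p, 315 of all 14483 genes were positive and 322 negative. The share of all genes that DESeq2 called is not given here. Over all genes the alternatives called 15 to 53, where limma as used above called 20. Cryab had an interaction of -0.75 ± 0.15 (limma adjusted p = 0.0786). It passed without ADREX air 65 (limma adjusted p = 0.0363), without ADREX ozone 84 (limma adjusted p = 0.0255) and with DESeq2 (adjusted p = 0.00201), and ranged from 0.00201 to 0.237 over 24 alternatives. Bag3 had -0.85 ± 0.21 (limma adjusted p = 0.218, and 0.0491 with DESeq2). Hspb1 had -0.74 ± 0.41, Ddit3 -0.35 ± 0.21 and Creld2 0.28 ± 0.21, each at limma adjusted p = 1.0.

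In the brainstem the interaction was called by limma, edgeR and DESeq2 for 0 of 39 members, with 1 at an unadjusted limma p under 0.05 (4 without ADREX ozone 81), beside 0.201% of all genes. At such a p, 388 of all 14408 genes were positive and 375 negative with that library, and the number without it is not given here. Cryab had -0.85 ± 0.28 (limma adjusted p = 0.569). Hspb6 (-0.29 ± 0.16), Pdia6 (0.29 ± 0.18), Atf6 (0.25 ± 0.17) and Pdia4 (0.23 ± 0.16) followed at limma adjusted p = 0.994. Over 24 alternatives, among them the fit without ADREX ozone 81, Pdia6 ranged from 0.13 to 0.35 and Pdia4 from 0.12 to 0.31. Hspb6 ranged from -0.36 to -0.23 and Atf6 from 0.15 to 0.32. The ozone response in sham rats did not differ detectably between tissues either. At an unadjusted limma p under 0.05, 202 of all 14533 genes were positive and 214 negative. Limma, edgeR and DESeq2 called 0 of 39 members (1 at such a p), beside 0.0% of all genes. Bag3 had the smallest p there, at 0.46 ± 0.21, followed by Pdia4 (-0.27 ± 0.16), Atf6 (0.30 ± 0.18), Dnajb11 (-0.24 ± 0.15) and Hspb6 (-0.26 ± 0.18), all at limma adjusted p = 0.983.

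The brainstem library ADREX ozone 81 stood apart. Over the 39 members its median absolute distance from the brainstem mean was 0.378 on the log2 scale, against 0.079 to 0.197 in the other brainstem libraries, and over all genes tested it was 0.408. It was the lowest brainstem library for 10 members and the highest for 10, where it was lowest for 26.3% and highest for 26.0% of all genes. In the hypothalamus ADREX ozone 84 (0.264) and sham ozone 18 (0.258) were the farthest.

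**Figure D4:**
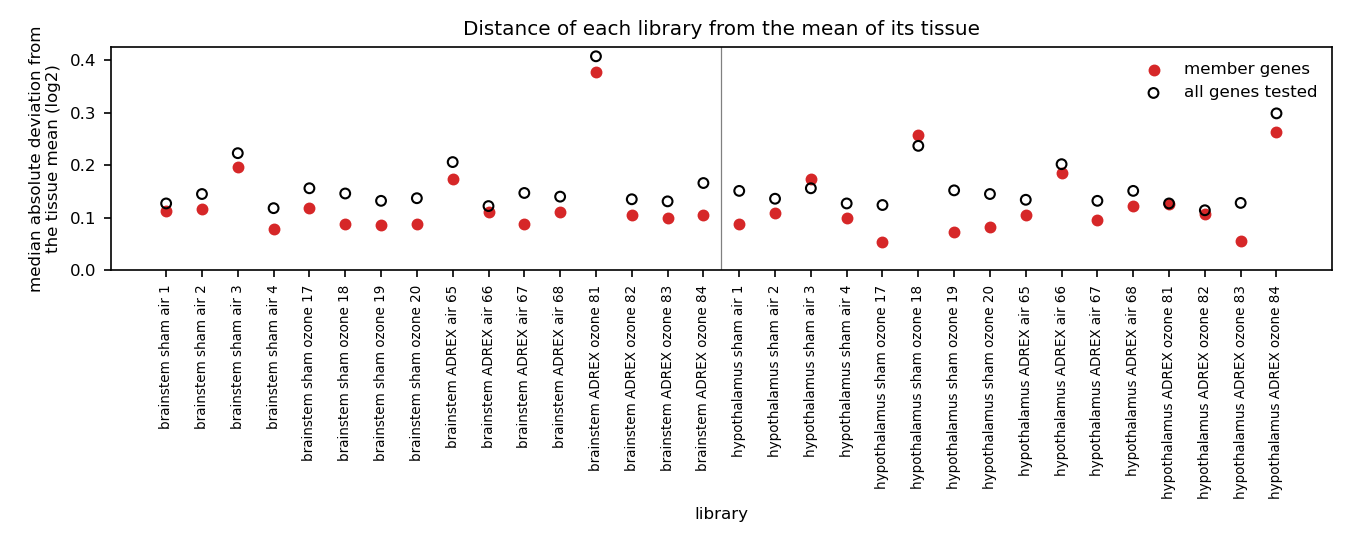
Median absolute deviation of each library (horizontal axis) from the mean of its tissue, in log2 units (vertical axis), over the 39 members (red) and over all genes tested (open circles). Brainstem ADREX ozone 81 is the highest, at 0.378 and 0.408, and the members follow all genes in most libraries.

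Without that library the brainstem gave 1 member for ozone in sham rats, Cryab (0.81 ± 0.13, limma adjusted p = 0.00269), beside 1.89% of all genes. For ADREX against sham under ozone it gave 2, Cryab (-1.07 ± 0.14, limma adjusted p = 0.000325) and Bag3 (-0.50 ± 0.13, limma adjusted p = 0.0395), beside 3.08% of all genes. Limma called 0 members for ozone in ADREX rats (0.0% of all genes), for the operation in air (0.0486%) and for the interaction (0.326%), where Cryab had -0.61 ± 0.19 (limma adjusted p = 0.348). Several ADREX changes under ozone moved when it was left out. Cryab went from -0.04 to 0.20, Hsf2 from 0.01 to 0.31, Dnajb4 from -0.23 to 0.08, Dnajb9 from -0.45 to -0.08 and Dnajb1 from -0.44 to -0.24. Of the endoplasmic reticulum chaperones, Hspa5 went from -0.13 to -0.28 and Hsp90b1 from -0.06 to -0.22. None of these passed at limma adjusted p = 0.745 or above.

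Between the tissues, in sham rats in air, 12 members differed, 3 higher and 9 lower in the hypothalamus. That is 12 of 39 beside 31.0% of all genes, so the share is close to the background and is no result about these genes as a set. By class, 4 of 4 small heat-shock proteins were lower in the hypothalamus, where 15.1% of all genes were lower. This class was singled out with the values known, and 1 of the 4, Hspb8, lost its call in 9 of 19 alternatives.

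**Figure D5:**
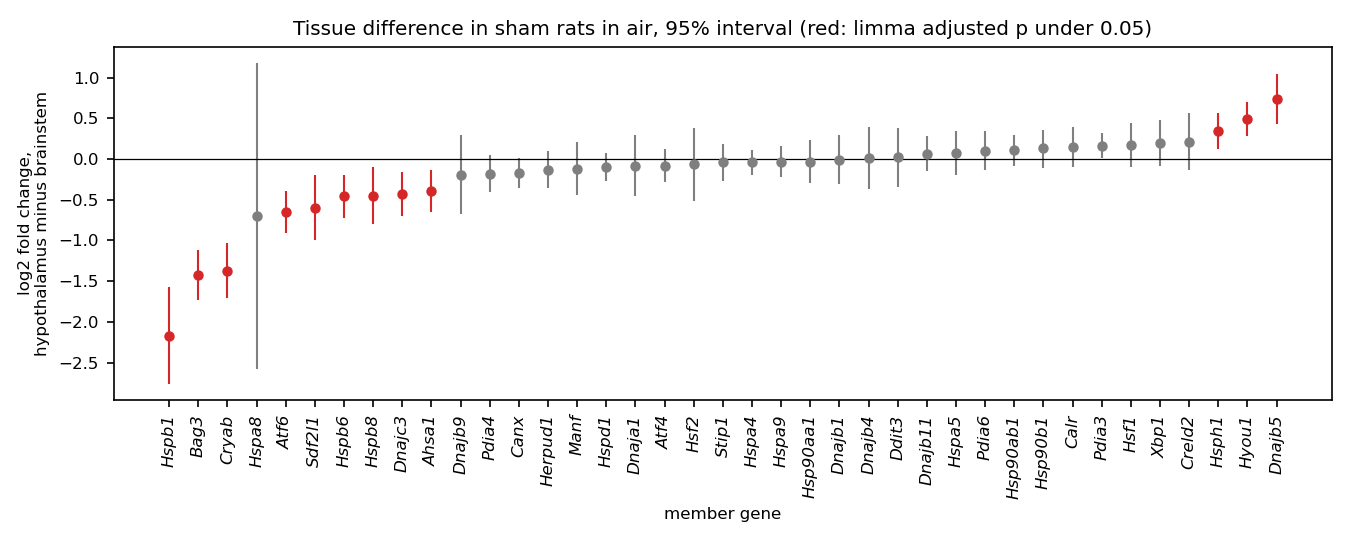
Log2 fold change of hypothalamus against brainstem in sham rats in air (vertical axis) for the 39 members in order of size, with 95% intervals; red points passed limma's adjusted p of 0.05. Hspb1, Bag3 and Cryab are the lowest at -2.17, -1.42 and -1.37, and Hsph1, Hyou1 and Dnajb5 are the called members that are higher.

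Hspb1 was at 71.1, 66.7, 57 and 66 in the sham air brainstem and at 13.2, 10.5, 18.8 and 13.4 in the hypothalamus. The groups were far apart, and 16.9% of all genes were separated in that direction. The difference was -2.17 ± 0.29 (limma adjusted p = 7.67e-07). Bag3 was at 301 ± 28.1 and 113 ± 19.2, a difference of -1.42 ± 0.15 (limma adjusted p = 8.93e-09). Cryab was at 1222 ± 189 and 469.8 ± 56, a difference of -1.37 ± 0.17 (limma adjusted p = 1.1e-07). Atf6 was at 649.8 ± 73.8 and 412 ± 11.4 (-0.65 ± 0.13, limma adjusted p = 0.000188). Hspb6 was at 409.6 ± 36.5 and 296 ± 16.4 (-0.46 ± 0.13, limma adjusted p = 0.00522).

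On the higher side, the Hsp40 protein Dnajb5 was at 195, 152, 205 and 186 in the brainstem and at 327, 306, 289 and 307 in the hypothalamus. All hypothalamus libraries were higher, as for 18.6% of all genes (0.74 ± 0.15, limma adjusted p = 0.000345). Hyou1 was at 1095 ± 140.2 and 1529 ± 59.8 (0.49 ± 0.10, limma adjusted p = 0.000418). These 7 genes kept their calls in all alternatives.

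The other 5 calls each depended on single libraries. They were Hsph1 (0.34 ± 0.11), Dnajc3 (-0.43 ± 0.13), Sdf2l1 (-0.60 ± 0.20), Ahsa1 (-0.39 ± 0.13) and Hspb8 (-0.45 ± 0.17), with limma adjusted p from 0.0133 for Dnajc3 to 0.0481 for Hspb8. Hsph1 was lost without brainstem sham air 2 (limma adjusted p = 0.0936) or hypothalamus sham air 2 (0.0612). Dnajc3 was lost without brainstem sham air 3 (0.0648) or hypothalamus sham air 3 (0.0986). Sdf2l1 was lost without brainstem sham air 1 (0.0515) or 3 (0.0643), or hypothalamus sham air 2 (0.0874). Ahsa1 was lost without brainstem sham air 3 (0.13), or hypothalamus sham air 1 (0.0535) or 4 (0.0635). Hspb8 was lost without brainstem sham air 2 (0.0757), 3 (0.16) or 4 (0.0756), or hypothalamus sham air 1 (0.0836), 2 (0.109) or 4 (0.0981), all by limma. The members nearest to a call were Pdia3 (0.16 ± 0.08), Canx (-0.17 ± 0.09), Pdia4 (-0.18 ± 0.11), Xbp1 (0.20 ± 0.14) and Hsf1 (0.17 ± 0.13), with limma adjusted p from 0.108 to 0.348, and Canx passed without brainstem ADREX ozone 81 (limma adjusted p = 0.0396).

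Markers of several cell types differed between the tissues as well. Oligodendrocyte markers summed to 380560.4 to 438800 in the sham air brainstem and to 129372 to 145219 in the hypothalamus, and 10 of 10 were lower there. Astrocyte markers summed to 48214 to 50673 and 28988 to 30723, with 4 of 9 lower and 1 higher. Neuron markers summed to 50936 to 53967 and 48105 to 49765, with 4 of 8 higher and 2 lower. Mural and fibroblast markers summed to 1725 to 3748 and 1365 to 1523, with 7 of 10 lower. Of 8 endothelial markers 2 were lower, and of 8 microglia markers 1 was lower. The part of cell makeup in the tissue differences of Cryab, Bag3 and Hspb1 was not tested. The labels matched regional markers, with 8 of 8 hindbrain Hox genes at 0 in the sham air hypothalamus and sums of 917 to 1386 in the sham air brainstem. Hypothalamus regional markers summed to 2593 to 3276 in the hypothalamus and 499 to 809 in the brainstem.

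The rest of these pathways was read from 2 further lists. Of 55 other heat-shock and cytosolic chaperone genes 49 were tested, and of 49 other genes of the unfolded-protein response and folding in the endoplasmic reticulum 45 had a row and 43 were tested. For ozone, the operation and both kinds of interaction, limma, edgeR and DESeq2 each called 0 genes of either list. At an unadjusted limma p under 0.05 there were 0 to 5 genes of the first list and 0 to 3 of the second per comparison. Over all genes tested, 202 to 894 were higher and 214 to 934 lower at such a p per comparison. Edem1, which extracts misfolded glycoproteins for degradation, had 0.73 ± 0.21 in the brainstem of sham rats under ozone (limma adjusted p = 0.155). Chordc1, an Hsp90 co-chaperone, had -0.52 ± 0.18 in the hypothalamus (limma adjusted p = 0.187). The inducible Hsp70 gene Hspa1a was at 34.4 ± 6.25 in sham air and 18.3 ± 3.67 in sham ozone hypothalamus (-0.88 ± 0.34, limma adjusted p = 0.266), and Hspa1b was at 0 to 15.9 in all libraries. This pair is near-identical, so the split of reads between them is uncertain.

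Between tissues the first list had 4 genes higher and 8 lower in the hypothalamus, and the second 4 higher and 6 lower, beside 31.0% of all genes in either direction. Hspa2, an Hsp70 isoform, was lower (-1.2 ± 0.16, limma adjusted p = 4.25e-07), as was the neuronal co-chaperone Dnajb2 (-0.45 ± 0.09, limma adjusted p = 0.000358). Dnajc6 (auxilin), which uncoats clathrin vesicles, was higher (0.54 ± 0.11, limma adjusted p = 0.000219), and so was Bag4 (0.87 ± 0.21, limma adjusted p = 0.00163). In the second list the transcription factor Creb3l2 (-0.77 ± 0.16) and Edem2 (-0.54 ± 0.14) were lower. The kinase PERK (Eif2ak3, 0.42 ± 0.09) and the glycoprotein folding sensor Uggt1 (0.42 ± 0.09) were higher, with limma adjusted p from 0.000325 to 0.00298 for these 4.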

How the data were processed

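The authors deposited a table of normalized read counts per gene for 32 libraries of rat brainstem and hypothalamus, treated here as a signal. Per the submitters' processing notes, Partek and DESeq2 were used with build rn6, and no role or version is stated. Neither aligner nor annotation version is given in these sources. Dividing each column by its step (0.6228 to 1.2501) gave whole reads for 100.0% of values within 0.001, so edgeR and DESeq2 could be run as alternatives. Normalization assumes that most genes keep their level.

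From the deposited values, log2(value + 1) was tested with limma 3.58.1 (R 4.3.3, mean-dependent prior) for genes with a mean of 10 or more, with Benjamini-Hochberg adjustment over all genes of a comparison. Each tissue was fitted on 16 libraries, and comparisons between tissues on 32. Fold changes of low genes are understated on this scale. Alternatives were edgeR 4.0.16 and DESeq2 1.42.0 on the recovered reads, rescaling by median of ratios, pseudocounts of 0.5 and 5, a mean of 50 or no filter, a fit of only the compared groups, a replicate block between tissues, and leaving out each library. The fits were tested on simulated data. Members passing the threshold are named in each comparison, with the 5 smallest p among the rest. In the 2 further lists, the 4 called genes with the smallest p are named per comparison, and 3 uncalled genes were named after their values were seen. Hspb2 was likewise chosen afterwards. The members and lists were chosen with earlier results of these data known. Motif matches used RefSeq promoters of GRCr8, another build than that of the counts, and 1 matching sequence is not reported here.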

Additional observations from a re-analysis of the deposited data

Results flagged for a closer look

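Of 312 combinations of member and group, 27 held a library far from the other 3, by a gap that took up most of the group's range (Dixon's criterion at 95%), and chance flags about 1 in 20 groups. Values are normalized counts, and the range of the other 3 libraries is given for the largest gaps. Brainstem ADREX ozone 81 was low for Hsf2 (152, others 342 to 360.1) and Dnajb4 (472, others 1113 to 1171). The same library was high for Stip1 (1817), Hspa5 (5021), Hsp90b1 (3319.7), Pdia6 (1986, others 1251 to 1294) and Dnajb11 (437). Hypothalamus sham ozone 18 was high for Dnajb4 (1515) and Herpud1 (670.3, others 523 to 535). It was low for Hspa5 (3064), Ddit3 (101) and Manf (212, others 273 to 279). Hypothalamus ADREX ozone 84 was high for Hspb8 (394), Ahsa1 (716) and Sdf2l1 (76.2). Brainstem ADREX air 65 was high for Hyou1 (1691, others 1094 to 1111) and Ddit3 (183), and low for Stip1 (1058) and Atf6 (458). The other flags were single. Low values were Hsf1 in brainstem sham ozone 17 (144), Hsp90aa1 in hypothalamus ADREX air 65 (22802), Canx in hypothalamus sham air 1 (5556) and Sdf2l1 in brainstem sham air 4 (75.5). High values were Hspb8 in hypothalamus ADREX air 67 (215), Dnajb4 in brainstem sham air 3 (1299.6), Pdia3 in hypothalamus sham air 2 (2378) and Dnajb11 in hypothalamus ADREX air 66 (382).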

How the results depend on the processing

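No call reversed its direction under any alternative run, and Cryab kept its hypothalamus call for ozone in sham rats and both calls for ADREX against sham under ozone. Counts of members called moved as follows. Ozone in sham brainstem gave 1 (from 0) with DESeq2, with the compared groups alone and without ADREX ozone 81, so 0 to 1 with single libraries left out. Ozone in sham hypothalamus gave 1 (from 2) with no filter and with the compared groups alone, and 1 to 3 overall. ADREX against sham under ozone gave 2 (from 1) in the brainstem with DESeq2, with 1 to 2 when libraries were left out, and 1 (from 2) in the hypothalamus with the compared groups alone, again with 1 to 2. The hypothalamus interaction gave 2 (from 0) with DESeq2 and 0 to 1 when libraries were left out. The tissue comparison gave 8 to 13. The causes were not tested. Counts over all genes ranged from 73 to 272 (sham brainstem), 115 to 412 (sham hypothalamus), 148 to 489 and 161 to 591 (ADREX against sham under ozone, brainstem and hypothalamus). They ranged from 15 to 53 for the hypothalamus interaction and from 3780 to 5206 between tissues. Leaving out the 4 libraries over 2000 RPM of liver transcripts, chosen after seeing the data, ended the tissue calls of Hspb8 (adjusted p = 0.122 by limma), Hsph1 (0.067) and Sdf2l1 (0.0971).

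Replicate numbers recur in both tissues. Over the 16 pairs the deviations of same-numbered libraries correlated at -0.531 to 0.612, 7 over 0.1, and 4 libraries of 16 correlated best with their own number. This check cannot tell whether same-numbered libraries came from the same rat, because deviations within groups of 4 also carry differences between single libraries. The numbers were not taken as pairs except in the replicate block. With the replicate block 12 members were called between tissues, as without it, and 0 for the difference between tissues in the ozone response. With 4 libraries a group and few reads, the changes of Hspb1 and Hspa8 had wide errors, at 0.30 and 0.89 (SE, log2) for ozone in sham brainstem.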
